A study of Mus musculus with 12 samples.

Results

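The mRNAs of 8 CXC chemokines (Cxcl1, Cxcl2, Cxcl3, Cxcl5, Cxcl9, Cxcl10, Cxcl11 and Cxcl16) were followed in mouse bone marrow-derived dendritic cells (BMDC) given LPS, JSH-23, both agents or neither. The genes were chosen by symbol. Cxcl1, Cxcl2, Cxcl3 and Cxcl5 were grouped as neutrophil-attracting and Cxcl9, Cxcl10 and Cxcl11 as interferon-linked, while Cxcl16 was put in neither. They are 8 of the 55335 genes listed, and all 8 were among the 14357 genes with enough reads to be tested.

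The cells came from C57BL/6 mice with the CreER transgene, a tamoxifen-activated recombinase, and both copies of Ctcf intact. All 4 groups carried this transgene. In the study 4-hydroxytamoxifen, which activates CreER, was added to cultures, and the labels do not say whether these cultures received it. Adult bone marrow was grown with GM-CSF for 6 days with fresh medium every 2 days. The floating cells were then selected with beads against CD11c. Such cultures hold macrophage-like cells beside dendritic cells. WT received neither agent, WTL received LPS (100 ng/ml for 3 h), WT + JSH23 received JSH-23 (100 µM for 3 h), and WTL + JSH23 received JSH-23 before LPS. LPS is a cell wall component of Gram-negative bacteria that is sensed by TLR4, and JSH-23 is a small molecule used to keep the NF-κB subunit RelA out of the nucleus. Each group had 3 libraries, described as biological replicates with no account of animals or cultures, so that p values measure the spread between these libraries. Without JSH-23 the replicate numbers ran from 4 to 6, and with it from 1 to 3. Any difference of preparation that goes with this numbering, and the solvent of JSH-23, cannot be told apart from the inhibitor.

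CXC chemokines are small secreted proteins that guide leukocytes. Those with a glutamate-leucine-arginine motif before the first cysteines bind CXCR2 and draw neutrophils, whereas CXCL9, CXCL10 and CXCL11 lack it, are induced by interferons and draw activated T cells and NK cells through CXCR3. In dendritic cells TLR4 signals both through NF-κB and through IRF3, the latter leading to interferon-β and then to interferon-stimulated genes. CXCL16 is made as a membrane protein, takes up oxidized lipids, binds CXCR6, and can be cut from the cell surface.

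Of the 8 genes, 7 lie on chromosome 5 of GRCm38 (mm10) in a neutrophil-attracting cluster and an interferon-linked cluster. Cxcl5 (chr5:90759360-90761624), Cxcl3 (chr5:90786103-90789600), Cxcl1 (chr5:90891241-90893115) and Cxcl2 (chr5:90903871-90905938) lie on the plus strand, with 10.76 kb between Cxcl1 and Cxcl2. Cxcl9 (chr5:92321347-92328079), Cxcl10 (chr5:92346638-92348889) and Cxcl11 (chr5:92359544-92365485) lie on the minus strand, 1415.41 kb beyond Cxcl2. Cxcl11 is annotated as a polymorphic pseudogene, that is, a gene whose coding sequence is broken in the reference strain. Cxcl16 lies apart on chromosome 11 (chr11:70453983-70459984, minus strand).

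RefSeq promoter windows (GRCm38.p6, 250 bases before to 50 bases after the start site) were at hand for 5 of the 8 genes. The stretches of Cxcl1 (chr5:90891125-90891244), Cxcl2 (chr5:90903779-90903898) and Cxcl3 (chr5:90785981-90786100) run from position -120 to -1 before the start site on the plus strand. Those of Cxcl10 (chr5:92349029-92349109) and Cxcl9 (chr5:92328219-92328279) are read on the minus strand from -220 to -140 and from -200 to -140. They are shown because they hold every match to the NF-κB motif GGANNTTCC or to GAAANNGAA, the core of the interferon-stimulated response element, in these windows. Both motifs were searched on both strands, they do not overlap each other here, and the capitals mark the matches.
Cxcl1: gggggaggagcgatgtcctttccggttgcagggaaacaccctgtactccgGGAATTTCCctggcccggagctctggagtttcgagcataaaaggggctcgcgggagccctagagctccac
Cxcl2: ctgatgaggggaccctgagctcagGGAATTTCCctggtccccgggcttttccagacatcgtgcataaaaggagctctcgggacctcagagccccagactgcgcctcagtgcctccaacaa
Cxcl3: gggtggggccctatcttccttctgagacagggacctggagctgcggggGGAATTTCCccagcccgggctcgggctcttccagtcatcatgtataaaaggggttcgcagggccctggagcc
Cxcl10: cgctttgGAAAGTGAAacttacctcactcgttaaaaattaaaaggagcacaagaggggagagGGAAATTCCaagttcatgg
Cxcl9: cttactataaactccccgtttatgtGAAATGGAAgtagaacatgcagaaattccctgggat

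Cxcl1, Cxcl2 and Cxcl3 each held GGAATTTCC, at positions -70 to -62, -96 to -88 and -72 to -64. Cxcl10 held GGAAATTCC at -158 to -150 and GAAAGTGAA at -213 to -205, and was the one gene among these 5 with both motifs. Cxcl9 held GAAATGGAA at -175 to -167. The NF-κB motif was present in 4 of the 5 windows against 4.26% of all 32851 RefSeq windows, and the interferon element core in 2 of the 5 against 8.56%. A match describes these letters only, and binding was not measured here.

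The libraries held between 24664724 and 34837847 expected counts. Markers of the labelled cell type were present, with dendritic cell markers summing to between 14337 and 18409 CPM (counts scaled to a common library size), although Cd209a was at 0.091 CPM or lower in every group mean. Macrophage markers summed to 1286 to 1354 CPM in WT, 2215 to 2294 in WTL, 1238 to 1285 in WT + JSH23 and 1894 to 2078 in WTL + JSH23, and thus moved with LPS. Neutrophil markers summed to between 63 and 85.7 CPM, with the lower values (63 to 67.6) in the groups with JSH-23. Mast cell and lymphoid markers summed to less than 1 CPM in every library. The part of these cells in the chemokine values was not tested. In bulk RNA a smaller number of producing cells and less mRNA per cell cannot be told apart.

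Among untreated cells, Cxcl3, Cxcl16 and Cxcl10 were the most abundant of the 8 mRNAs. In TPM, the authors' measure that accounts for transcript length, the means in WT were 733.3 for Cxcl3, 732 for Cxcl16 and 619.9 for Cxcl10. Cxcl2 followed with 83.42, Cxcl9 with 21.82, Cxcl1 with 10.45, Cxcl5 with 6.27 and Cxcl11 with 2.71. Neighbours in this order did not overlap between libraries, except Cxcl3 and Cxcl16. In WTL the order was led by Cxcl3 (5423 TPM), Cxcl2 (4261) and Cxcl1 (1213). In WTL + JSH23 the same 3 genes led, with 7556, 4506 and 1610 TPM, and Cxcl10 stood below Cxcl16 and Cxcl5.

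**Figure D1:**
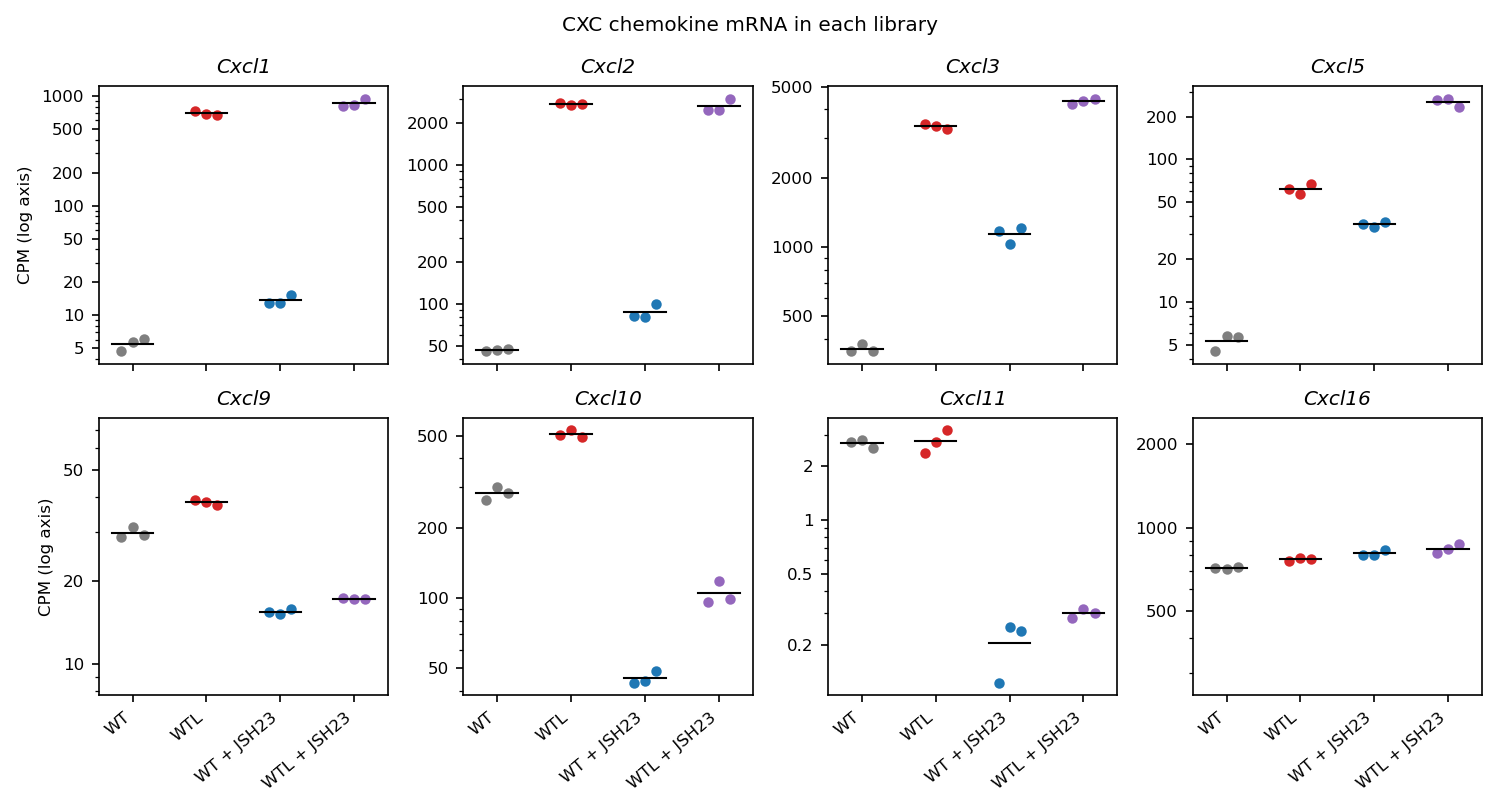
CPM of each chemokine on a log axis, with one point per library and a line at the mean of the 3 libraries of a group. The neutrophil-attracting genes are high in both LPS groups, Cxcl1 reaching 699 and 859 CPM, whereas Cxcl9, Cxcl10 and Cxcl11 are low in both groups with JSH-23, Cxcl10 falling to 45.4 and 105 CPM.

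Differences were tested gene by gene with the quasi-likelihood F-test of edgeR over all genes. A gene was called when its adjusted p was under 0.05 and its change exceeded 2-fold, and "rose" or "fell" is used below for an adjusted p under 0.05 whatever the fold. LPS without JSH-23 called 4 of the 8 chemokines higher and 0 lower, where 7.36% of all tested genes were called higher and 9.09% lower. With JSH-23 present, LPS called 5 higher and 0 lower (background 5.85% and 4.49%). Under LPS, JSH-23 called 1 chemokine higher and 3 lower (3.75% and 3.25%), and without LPS it called 3 higher and 2 lower (2.43% and 2.94%). Both of these lower counts include Cxcl11, which had 4 to 8 counts per library with JSH-23. By adjusted p alone the counts were 7 higher and 0 lower, 6 and 0, 4 and 3, and 5 and 3 in the same order. Against these stood 31% and 34.7%, 27.4% and 27.1%, 24.5% and 24.2%, and 18.8% and 22.1% of all tested genes.

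The 4 genes that LPS called higher in the absence of the inhibitor were exactly the neutrophil-attracting ones. LPS moved their median by 4.71 on the log2 scale in cells free of JSH-23 and by 3.89 in its presence, against -0.05 and -0.02 over all tested genes. JSH-23 alone raised all 4, with a median of 1.49, and 3 of the 4 passed the 2-fold limit. The interferon-linked genes had medians of 0.37 and 0.57 with LPS, and of -2.28 (with LPS) and -2.64 (without LPS) with JSH-23.

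**Figure D2:**
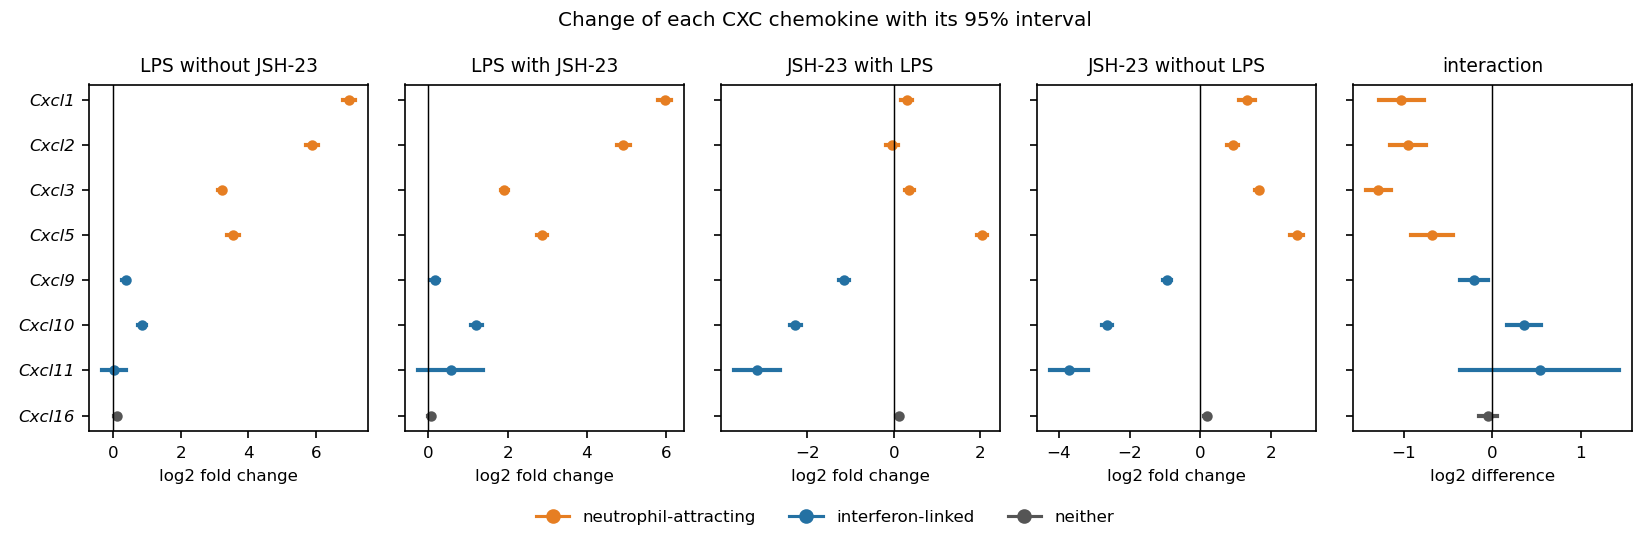
Log2 fold change of each chemokine in the 4 comparisons and, at the right, the log2 difference between its LPS change with and without JSH-23 (interaction), with 95% intervals as bars. With JSH-23 the neutrophil-attracting genes lie at or above 0 (up to 2.73) apart from Cxcl2 under LPS (-0.04), and the interferon-linked genes lie below 0 (down to -3.71). The lowest value is that of Cxcl11, which had 4 to 8 counts per library with JSH-23.

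Cxcl1, a CXCR2 ligand released by many cells early in inflammation, had the largest LPS change of the 8. Its level was 4.74, 5.72 and 6.04 CPM in the WT libraries and 736.9, 680.3 and 679.6 in WTL. With JSH-23 it was 13.0, 12.8 and 15.4 CPM in WT + JSH23 and 805.6, 822 and 949 in WTL + JSH23. Every JSH-23 library was thus above every library of the matching group without it. LPS alone raised Cxcl1 127-fold (log2 6.99, SE 0.0868, adjusted p = 4.62e-23), and by 5.96 on the log2 scale after JSH-23 (SE 0.0785, adjusted p = 9.98e-23). JSH-23 raised Cxcl1 2.5-fold in unstimulated cells (log2 1.32, SE 0.108, adjusted p = 1.72e-09). Under LPS the rise was 0.30 (SE 0.0579, adjusted p = 0.000206) and below 2-fold.

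Cxcl2, a CXCR2 ligand made chiefly by myeloid cells, rose from 45.9, 46.9 and 47.4 CPM in WT to 2803, 2707 and 2737 in WTL. The WT + JSH23 libraries had 82.4, 80.9 and 100.6 CPM and the WTL + JSH23 libraries 2486, 2509 and 3010. Replicate 3 was the highest in both groups with JSH-23, and the WTL + JSH23 libraries lay on both sides of the WTL libraries. LPS changed Cxcl2 by 5.88 on the log2 scale (SE 0.0829, adjusted p = 1.52e-22) without and by 4.92 (SE 0.0785) with the inhibitor. Under LPS, no difference with JSH-23 was found (log2 fold change -0.04, 95% interval -0.18 to 0.09, adjusted p = 0.622), although without WTL + JSH23 replicate 3 the value was -0.14 with an adjusted p of 0.0388. In unstimulated cells JSH-23 raised it by 0.91 (SE 0.0754, adjusted p = 2.13e-09), just under 2-fold.

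Cxcl3, another CXCR2 ligand, was the most abundant of the 4 at rest. It was at 354.9, 378.6 and 354 CPM in WT, 3427, 3377 and 3285 in WTL, 1172, 1034 and 1212 in WT + JSH23, and 4186, 4329 and 4435 in WTL + JSH23. The 4 groups did not overlap. LPS changed it by 3.21 (SE 0.0512, adjusted p = 8.82e-22) and, with JSH-23, by 1.92 on the log2 scale (SE 0.0484). JSH-23 alone raised it by 1.65 (SE 0.0485, adjusted p = 2.6e-16) and under LPS by 0.36 (SE 0.0468, adjusted p = 1.42e-06).

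Cxcl5, a CXCR2 ligand best known from epithelial cells and platelets, was the gene JSH-23 raised most. WT libraries had 4.53, 5.75 and 5.62 CPM and WT + JSH23 libraries 35.1, 33.7 and 36.4. With LPS the levels were 61.6, 57.0 and 67.0 CPM in WTL and 263, 267.5 and 233.3 in WTL + JSH23. The 4 groups were again apart, and Cxcl5 was the only one of the 4 genes past 2-fold with JSH-23 in both states. JSH-23 raised it 6.61-fold at rest (log2 2.73, SE 0.0899, adjusted p = 1.49e-15) and 4.13-fold under LPS (log2 2.04, SE 0.0611, adjusted p = 3.68e-16). LPS raised it by 3.54 on the log2 scale without JSH-23 (SE 0.0861, adjusted p = 8.66e-19) and by 2.86 with it (SE 0.064). Stromal, epithelial and endothelial markers, which could stand for other sources of Cxcl5, summed to 0.459 to 0.875 CPM without JSH-23 and to 0.919 to 2.16 CPM with it. Most of this sum was Cdh5, an endothelial cadherin, which was higher with JSH-23 in both states. It was at 0.531 CPM in WTL and 1.33 in WTL + JSH23 (log2 1.34, adjusted p = 0.000813). At rest it was at 0.519 CPM in WT and 0.951 in WT + JSH23 (log2 0.87, adjusted p = 0.0219). Col1a2 was below 0.1 CPM in every library. The part of such cells in the result was not tested.

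Reads of near-identical genes could in part be exchanged within this group. RSEM divides read pairs that fit several genes, and Cxcl2 and Cxcl3 had a fractional count in 11 of 12 libraries, while Cxcl1 had none. Cxcl16, which is outside this group, also had a fractional count in 11 of 12 libraries, and its overlap with Zmynd15 is given below. In WT + JSH23 replicate 1 Cxcl2 and Cxcl3 had 2682.1 and 38148.9 expected counts, with fractions that complement each other. In WT replicate 6 both counts were whole (1374 and 10261). This is the pattern of pairs divided between Cxcl2 and Cxcl3. How many pairs were divided, and with which gene in the case of Cxcl16, is not shown by the fraction.

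In the interferon-linked group JSH-23 lowered all 3 genes in both states, Cxcl11 on few counts. The log2 changes of these 3 genes with LPS were smaller than that of any neutrophil-attracting gene. Cxcl10, the most abundant of them and induced by type I interferon as well as by NF-κB, was at 263.9, 300.5 and 283.2 CPM in WT and 504.3, 527.5 and 493.8 in WTL. With JSH-23 it was at 43.4, 44.0 and 48.8 CPM, and with JSH-23 and LPS at 96.9, 118.5 and 99.7. Even the highest library with both agents was therefore below the lowest WT library. JSH-23 lowered Cxcl10 4.85-fold under LPS (log2 -2.28, SE 0.0637, adjusted p = 1.33e-16) and 6.23-fold at rest (log2 -2.64, SE 0.0671, adjusted p = 3.47e-17). LPS raised it by 0.85 on the log2 scale without JSH-23 (SE 0.0597, adjusted p = 5.37e-11) and by 1.21 with it (SE 0.0681, adjusted p = 2.11e-12).

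Cxcl9, which is driven above all by interferon-γ, had 28.7, 31.3 and 29.2 CPM in WT and 39.2, 38.4 and 37.3 in WTL. It was at 15.4, 15.2 and 15.8 CPM in WT + JSH23 and 17.3, 17.2 and 17.2 in WTL + JSH23. No library with JSH-23 reached the level of any library without it. JSH-23 lowered Cxcl9 by a log2 fold change of -1.15 under LPS (SE 0.0532, adjusted p = 1.66e-13) and of -0.94 at rest (SE 0.0529, adjusted p = 5.16e-12). The LPS rise was 0.37 without JSH-23 (SE 0.0485, adjusted p = 1.03e-06). With JSH-23 it was 0.16 (SE 0.058, adjusted p = 0.0288), which failed the threshold (adjusted p 0.0518 to 0.0752) without WT + JSH23 replicate 1 or 2 and without any one of the WTL + JSH23 libraries.

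Cxcl11 was near the limit of detection with JSH-23 and passed the filter on low counts through WT and WTL alone. It had 89, 99 and 73 counts in the WT libraries and 61, 82 and 69 in WTL. The libraries of WT + JSH23 had 4, 7 and 7 counts and those of WTL + JSH23 8, 8 and 7. The mean levels were 2.69 ± 0.153 CPM (SD, n = 3) in WT, 2.76 ± 0.407 in WTL, 0.205 ± 0.0713 in WT + JSH23 and 0.301 ± 0.0174 in WTL + JSH23. JSH-23 lowered Cxcl11 13.1-fold at rest (log2 -3.71, SE 0.26, adjusted p = 1.56e-10) and 9.01-fold under LPS (log2 -3.17, SE 0.254, adjusted p = 1.02e-09). With 4 to 8 counts per library with JSH-23, these folds give a direction and not a firm size. No LPS change was found without JSH-23 (log2 fold change 0.03, 95% interval -0.33 to 0.39, adjusted p = 0.901) or with it (0.57, -0.26 to 1.39, adjusted p = 0.276).

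Genes on the opposite strand overlap some of these mRNAs, and the strand setting of the counting is not given in the sources used here. Of the exonic bases, Cxcl10 shares 133 of 2252 with Art3 and Cxcl11 shares 1582 of 3794 with Gm2673. Art3 was at 0.46 CPM or lower in every library and Gm2673 at 0.

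Cxcl16, the membrane-bound member, was high and nearly level across the 4 groups. It had 718.9, 709.7 and 722.4 CPM in WT, 762.8, 779.1 and 774.4 in WTL, 800.8, 798.2 and 831.7 in WT + JSH23, and 814.6, 837 and 876.1 in WTL + JSH23. JSH-23 raised it by 0.18 at rest (SE 0.0351, adjusted p = 0.000316) and by 0.13 under LPS (SE 0.0351, adjusted p = 0.00528). LPS raised it by 0.11 without JSH-23 (SE 0.0351, adjusted p = 0.0111), and with JSH-23 the value was 0.06 (95% interval -0.02 to 0.13, adjusted p = 0.185). Its neighbour Zmynd15 on the opposite strand shares 552 of the 3021 exonic bases of Cxcl16 and was at 48.3 CPM or lower in every library.

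The sign of the small LPS changes depended on the scale. On log2(TPM + 1), tested with limma, the median of all genes moved by -0.26 with LPS and by -0.16 with LPS in the presence of JSH-23, and Cxcl16 then gave -0.19 and -0.11. Cxcl11 gave -0.20 without JSH-23 and Cxcl9 gave -0.07 with it. Relative to those medians the 4 values were 0.08, 0.05, 0.06 and 0.10.

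Whether LPS acted differently in the presence of the inhibitor was asked of the interaction, the log2 change with LPS in JSH-23-treated cells minus that in untreated cells. The interaction was lower than 0 for all 4 neutrophil-attracting genes and higher than 0 for Cxcl10, that is, 4 lower and 1 higher of 8 chemokines at an adjusted p under 0.05, where 8.44% of tested genes were lower and 9.54% higher. It was -1.03 for Cxcl1 (SE 0.123, adjusted p = 7.25e-06), -0.96 for Cxcl2 (SE 0.0996, adjusted p = 1.36e-06), -1.29 for Cxcl3 (SE 0.0668, adjusted p = 7.16e-11) and -0.68 for Cxcl5 (SE 0.113, adjusted p = 0.000229). For Cxcl10 it was 0.36 (SE 0.0901, adjusted p = 0.0077). Cxcl9 had -0.21 (95% interval -0.37 to -0.05, adjusted p = 0.0588), which passed without WT replicate 5 (-0.25, adjusted p = 0.032). Cxcl11 (0.54, -0.36 to 1.44) and Cxcl16 (-0.05, -0.15 to 0.05) gave adjusted p values of 0.448 and 0.543.

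For Cxcl1, Cxcl3 and Cxcl5 the smaller fold change with JSH-23 went with a higher level under LPS. The mean gain with LPS in CPM was 693 without and 845 with JSH-23 for Cxcl1, 2702 and 2580 for Cxcl2, 3001 and 3178 for Cxcl3, and 56.6 and 220 for Cxcl5. For Cxcl1 and Cxcl5 the gains of single library pairs did not overlap (674 to 732 against 790 to 936, and 51.3 to 62.5 against 197 to 234), whereas for Cxcl2 and Cxcl3 they did. Cxcl10 went the other way. Its gain was 226 CPM without JSH-23 (library pairs 193 to 264) and 59.6 CPM with it (48 to 75.1), although its fold change with LPS was larger with JSH-23. These gains are descriptions and were not tested.

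The balance between both groups was read in each library from their summed TPM. These sums rest mostly on the abundant genes. Cxcl10 made up 619.9 of 644 TPM of the mean interferon-linked sum in WT and 865.3 of 891 in WTL. Cxcl3 made up 733.3 of 833 TPM of the mean neutrophil-attracting sum in WT, and Cxcl3 and Cxcl2 5423 and 4261 of 10956 in WTL. The ratio of neutrophil-attracting to interferon-linked mRNA was 1.38, 1.27 and 1.24 in WT and 12.7, 12 and 12.2 in WTL. It was 24.7, 21 and 21.2 in WT + JSH23 and 69.3, 58.9 and 74.8 in WTL + JSH23. The ratio was thus higher with JSH-23 alone than with LPS alone in every library, and highest with both agents. In absolute terms LPS alone gave the larger neutrophil-attracting sum (10956 ± 211 TPM in WTL against 2511 ± 176 in WT + JSH23, SD, n = 3). The interferon-linked sum was 644 ± 39.4 TPM in WT, 891 ± 16 in WTL, 113 ± 10.8 in WT + JSH23 and 207 ± 19.9 in WTL + JSH23.

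**Figure D3:**
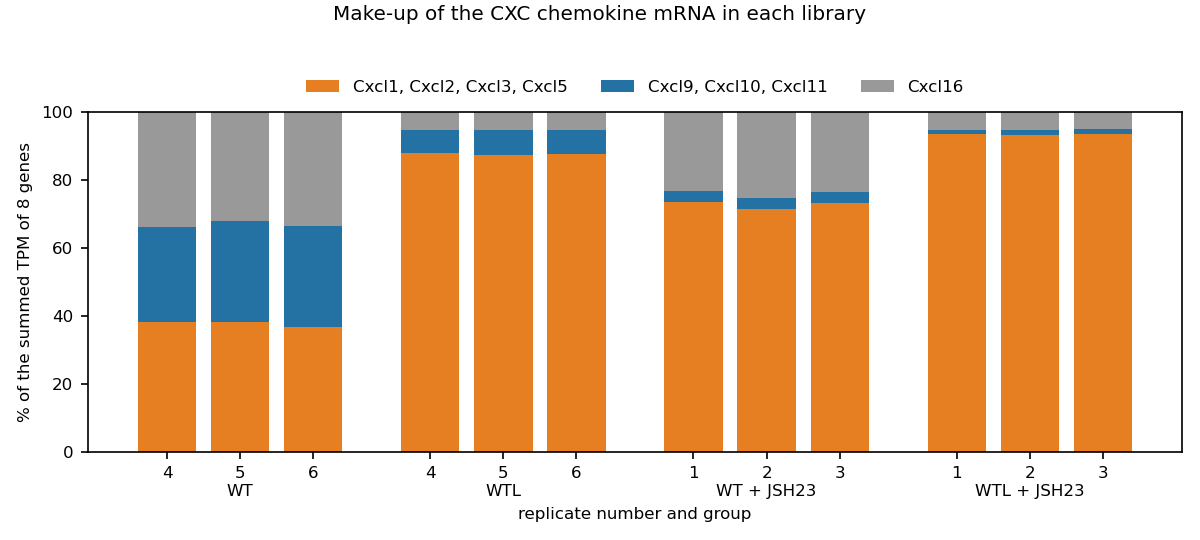
Share of the summed TPM of the 8 chemokines held by the neutrophil-attracting genes, the interferon-linked genes and Cxcl16, one bar per library. The interferon-linked share is 27.8% to 30% in WT, 6.92% to 7.3% in WTL, 2.98% to 3.45% in WT + JSH23 and 1.25% to 1.58% in WTL + JSH23.

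Within the neutrophil-attracting group the make-up also differed between libraries. The ratio of Cxcl1 to Cxcl2 in TPM was between 0.107 and 0.14 in WT, at 0.172 to 0.173 in WT + JSH23, between 0.277 and 0.297 in WTL and between 0.347 and 0.365 in WTL + JSH23. The 4 ranges do not overlap.

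Of 7 other CXC ligand genes, 4 had enough reads to be tested. Ppbp (chr5:90768518-90770063) and Pf4 (chr5:90772435-90773383), whose proteins are known from platelet granules, lie between Cxcl5 and Cxcl3. Ppbp, whose processed protein binds CXCR2, was at 30.3 CPM in WT, 31.1 in WTL, 113 in WT + JSH23 and 110 in WTL + JSH23. JSH-23 raised it by 1.90 at rest (adjusted p = 1.47e-16) and by 1.83 under LPS (adjusted p = 3.88e-16), while its LPS change was 0.03 (adjusted p = 0.69). Pf4, a ligand without the CXCR2-binding motif, had 71.6, 99.4, 83.9 and 90 CPM in the 4 groups and no change past 2-fold. Ppbp and Pf4 are also platelet markers. Of the other 3 genes of that marker list, Gp1bb and Gp9 were below 0.1 CPM in every library, and Itga2b was low but higher with JSH-23 at rest (0.475 CPM in WT and 1.03 in WT + JSH23, log2 1.12, adjusted p = 0.00626). Under LPS Itga2b was at 0.733 and 1.06 CPM (adjusted p = 0.19), and the part of such cells in the Ppbp result was not tested. Cxcl14 was low, at 1.56 CPM in WT and 0.343 in WTL + JSH23, and JSH-23 lowered it under LPS (-1.61, adjusted p = 0.000242). Cxcl12 was tested with no change found (0.238 to 0.381 CPM), and Cxcl13, Cxcl15 and Cxcl17 were at 0.0376 CPM or lower in every group mean.

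Of 8 CXC receptor genes, 3 were tested. Cxcr4, the CXCL12 receptor, was the abundant one, at 62.3 CPM in WT, 9.59 in WTL, 93.6 in WT + JSH23 and 29.6 in WTL + JSH23. LPS lowered it (log2 -2.70, adjusted p = 2.57e-17) and JSH-23 raised it under LPS (1.62, adjusted p = 2.05e-12). Cxcr5 rose with LPS (1.01, adjusted p = 0.000172). Cxcr6, the CXCL16 receptor, was at 0.169 CPM in WT, 0.49 in WTL, 0.233 in WT + JSH23 and 0.246 in WTL + JSH23. These levels are near the filter on low counts and highest in WTL, so that the LPS change of Cxcr6 is not read as a result. Cxcr2, the receptor of the neutrophil-attracting ligands, was at 0.234 CPM or lower in the group means and Cxcr3 at 0.223 or lower.

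All 6 listed genes for enzymes that cut CXC chemokines were tested. Of all tested genes JSH-23 called 2.43% higher at rest and 3.75% higher under LPS. JSH-23 called 1 of 6 higher in each state, Mmp12, a macrophage elastase that trims CXCR2 ligands, which went from 1601 CPM in WT to 3667 in WT + JSH23 (log2 1.2, adjusted p = 1.79e-14) and from 2009 in WTL to 4076 in WTL + JSH23 (1.02, adjusted p = 1.25e-13). Dpp4, which clips CXCL9 to CXCL11, fell by 0.39 under LPS (adjusted p = 3.34e-05) and by 0.41 at rest with JSH-23. Adam10, which sheds CXCL16, fell by 0.49 with LPS (adjusted p = 1.5e-08), and Adam17 fell by 0.35 with JSH-23 under LPS (adjusted p = 8.39e-07).

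Other genes linked to the same pathways were taken as lists. Of 8 early NF-κB-linked genes (Tnf, Il1a, Il1b, Il6, Ccl3, Ccl4, Ptgs2 and Icam1), LPS called 8 higher without and 8 higher with JSH-23, with medians of 5.36 and 4.75. LPS called 7.36% of all tested genes higher without JSH-23 and 5.85% with it. Under LPS, JSH-23 lowered all 8 by adjusted p, 4 of them past 2-fold, with a median of -1.0 against 0.02 over all genes. Of all tested genes 24.2% were lower there, 3.25% past 2-fold (22.1% and 2.94% at rest). The chemokine Ccl4 had -2.02 (adjusted p = 7.33e-16), Il1a -1.50 (adjusted p = 9.75e-14) and Il6 -0.59 (adjusted p = 1.97e-07). At rest 5 of the 8 fell, 2 of them past 2-fold, and Il6 rose by 0.63 (adjusted p = 2.02e-06). In the same comparisons the medians of the neutrophil-attracting chemokines were 0.33 and 1.49.

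Of 10 genes for NF-κB subunits and inhibitors, LPS called 7 higher in either state (7.36% of all tested genes without JSH-23 and 5.85% with it). Under LPS, JSH-23 called 0 in either direction, while by adjusted p 9 were lower and 0 higher, with a median of -0.28. By adjusted p, 24.2% of all tested genes were lower and 24.5% higher. Nfkbiz, which codes for an inducible co-activator of NF-κB targets, had the lowest value of this list (-0.92, adjusted p = 6.85e-14), and Rela itself had -0.13 (adjusted p = 0.0153).

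Among 12 regulators of the interferon axis, JSH-23 under LPS lowered 10 by adjusted p and called 1, Ifnb1, which encodes interferon-β. Of all tested genes 24.2% were lower by adjusted p and 3.25% were called lower. Ifnb1 was at 0.399 CPM in WT, 1.81 in WTL, 0.0443 in WT + JSH23 and 0.215 in WTL + JSH23, with an adjusted p of 6.68e-07 for JSH-23 under LPS. It had 44 to 49 counts in the WTL libraries, 10 to 17 in WT, 3 to 7 in WTL + JSH23 and 0 to 3 in WT + JSH23, so that it was tested through the groups without JSH-23 and the size of its change is not given. Irf1, a driver of Cxcl9 and Cxcl10 transcription, fell by 0.29 (adjusted p = 6.23e-07). At rest 11 of the 12 were lower by adjusted p and 1 was called, again Ifnb1, on the counts given above. The shares of all tested genes were 22.1% and 2.94%.

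The 11 interferon-induced genes fell under LPS with JSH-23 without exception by adjusted p, 6 of them past 2-fold, with a median of -1.07. Of all tested genes 24.2% fell there, and 3.25% did so past 2-fold (22.1% and 2.94% at rest). At rest 10 fell, 1 of them past 2-fold (Gbp5, -1.2, adjusted p = 1.83e-15), with a median of -0.69. The interferon-linked chemokines had medians of -2.28 and -2.64 in these comparisons. In the interaction 9 of the 11 genes were lower and 1, Gbp5, was higher (0.32, adjusted p = 0.000344), the direction seen for Cxcl10. Over all tested genes 8.44% were lower and 9.54% higher.

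**Figure D4:**
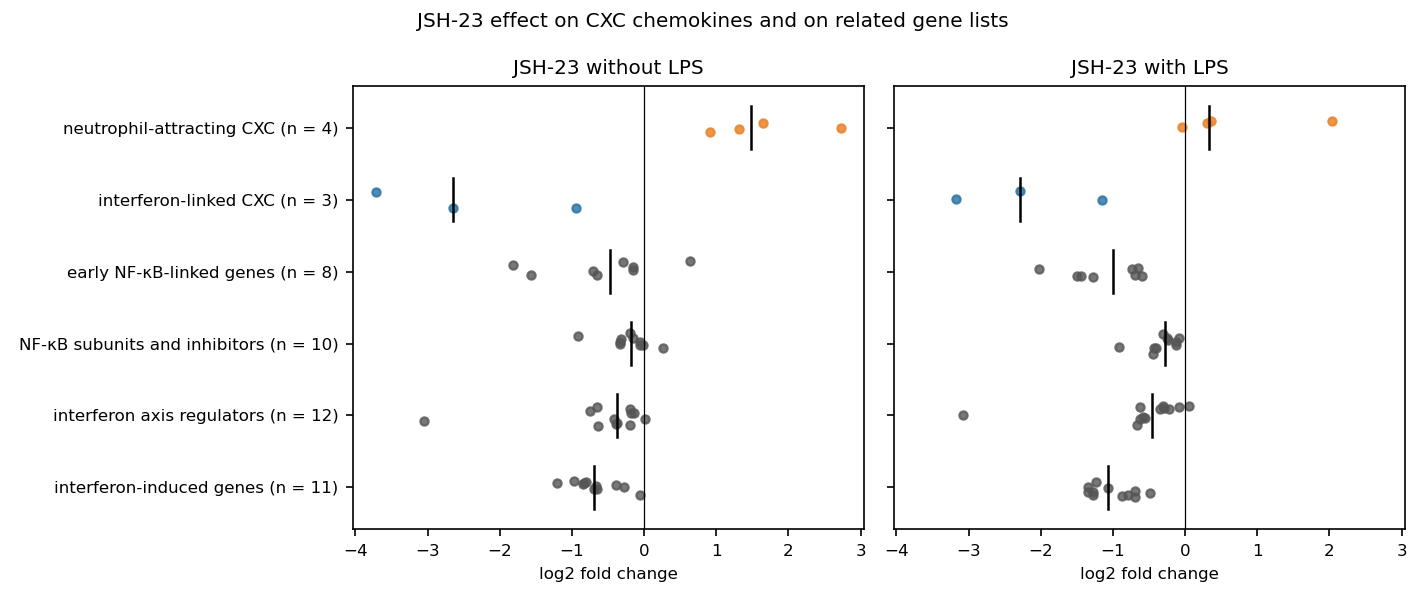
Log2 fold change with JSH-23, without LPS (left) and with LPS (right), for each tested gene of the 2 chemokine groups and of 4 lists, with a black line at each median. The neutrophil-attracting chemokines lie at the right without LPS (median 1.49). With LPS their median is 0.33, with Cxcl5 at 2.04, Cxcl3 at 0.36, Cxcl1 at 0.30 and Cxcl2 at -0.04. The medians of the early NF-κB-linked genes are -0.47 and -1.0.

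The 5 mRNA decay factors that act on unstable cytokine mRNAs showed no call with JSH-23 in edgeR, while by adjusted p 1 was higher and 2 were lower under LPS, and 0 and 2 at rest. Of all tested genes 24.5% were higher and 24.2% lower under LPS, and 18.8% and 22.1% at rest. With 5 genes, these counts do not stand out from those shares. Zc3h12a, which cleaves stem-loop-bearing mRNAs, rose with LPS from 32.5 to 189 CPM (log2 2.54, adjusted p = 1.22e-20) and fell by 0.47 with JSH-23 under LPS (adjusted p = 9.4e-09). Zfp36l2, which promotes decay of AU-rich mRNAs, went from 127 to 32 CPM with LPS (-1.99, adjusted p = 1.57e-17), and Zfp36l1 likewise fell by 1.41.

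The genes most like each chemokine across the 12 libraries were named by the smallest root mean square difference of centred log2 CPM among 7691 protein-coding genes. Cxcl2 was closest to Il6 (0.238), Shisa3 (0.261) and Ptgs2 (0.447), and Cxcl1 to Shisa3 (0.612) and Il6 (0.707). Cxcl3 was closest to Jdp2 (0.33) and Cxcl5 to Gdf15 (0.749). Cxcl9 followed P2ry14 (0.0702), Ifi47 (0.0814) and Samd9l (0.082), whereas Cxcl10 was closest to Cd69 (0.276) and Cxcl11 to P2ry13 (0.454). Cxcl16 was closest to Aldoa (0.0265), Rpl4 (0.027) and Rpsa (0.0289). Among the chemokines themselves Cxcl1 and Cxcl2 were nearest to each other (0.571), as were Cxcl10 and Cxcl11 (0.55) and Cxcl3 and Cxcl5 (0.778). These likenesses rest on 4 group means and describe the pattern only.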

How the data were processed

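The authors trimmed paired-end reads with Trim Galore, aligned them to mm10 with STAR (2.6.0c in the submitters' notes) and estimated gene expression with RSEM on a GENCODE annotation of unstated release. The labels name a kit that depletes ribosomal RNA and the study's methods a polyA kit, and which one was used is not settled. The deposited values used are expected counts, in which RSEM splits a read pair among all genes it matches, and TPM, computed by the authors from these counts and the effective lengths. Symbols and positions came from GENCODE M21 (55154 of 55335 identifiers matched without version).

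Expected counts were rounded. edgeR 4.0.16 (R 4.3.3) kept 14357 genes (filterByExpr), scaled libraries by the trimmed mean of M values and fitted 4 group means to all 12 libraries (8 residual degrees of freedom). Adjusted p values are Benjamini-Hochberg over those genes. SE is the log2 fold change divided by the square root of F. CPM are counts scaled to a common library size. At these depths 3 counts are worth 0.0854 to 0.138 CPM. The fit was tested on simulated counts. Alternatives used DESeq2 1.42.0 and its size factors, limma 3.58.1 on log2(TPM + 1), other filters, the libraries of one comparison, a replicate block and left-out libraries.

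The 8 genes are reported with all their values, the lists by counts with the receptors, enzymes, regulators and some examples named, and the alike genes as up to 3 per chemokine with a mean of at least 10 CPM. The genes and the lists were chosen with earlier results of these data known. The list examples were chosen after their values were seen.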

Additional observations from a re-analysis of the deposited data

Results flagged for a closer look

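In 5 of the 8 chemokines the LPS change was not the same in JSH-23-treated as in untreated cells by the interaction test of edgeR. By that test 8.44% of all tested genes were lower and 9.54% higher. The difference in LPS change was -1.03 for Cxcl1, -0.96 for Cxcl2, -1.29 for Cxcl3, -0.68 for Cxcl5 and 0.36 for Cxcl10 on the log2 scale. The first 4 genes had a higher level with JSH-23 in the absence of LPS and Cxcl10 a lower one.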

How the results depend on the processing

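With adjusted p alone in place of the 2-fold limit, 7 chemokines were higher with LPS, 4 with JSH-23 under LPS and 5 with JSH-23 at rest. A 2-fold limit on the interaction left 0 higher and 2 lower. On log2(TPM + 1) with limma, the LPS values of Cxcl11 (-0.20) and Cxcl16 (-0.19) without JSH-23 and of Cxcl9 (-0.07) and Cxcl16 (-0.11) with it were reversed, where the median of all genes had itself moved by -0.26 and -0.16. On that scale Cxcl10 with LPS and JSH-23 (0.95) and Cxcl9 with JSH-23 under LPS (-0.91) missed the 2-fold limit, and the interaction of Cxcl5 (-0.41) missed the threshold with an adjusted p of 0.0876. The interaction of Cxcl9 passed with DESeq2 size factors (-0.24, adjusted p = 0.035). Of 734 values, 725 were classed as the same, 3 as weaker, 2 as stronger and 4 as reversed. Call counts that moved with the 2-fold limit were not among them. The first class holds small values that changed sign, such as Cxcl2 with JSH-23 under LPS (-0.04 and, on log2(TPM + 1), 0.08). It also holds values that crossed the adjusted p threshold. The LPS rise of Cxcl9 without JSH-23 had an adjusted p of 1.03e-06 in edgeR and 0.705 in limma. For Cxcl16 it was 0.0111, and 0.0528 without the filter on low counts. With a replicate block LPS called 4 chemokines higher without and 5 with JSH-23, as without the block, the block changed no other chemokine call in the LPS comparisons and the interaction (groups with and without JSH-23 share no replicate number), and interaction calls over all genes went from 2582 to 2968. Same-numbered libraries with and without LPS had deviations that correlated weakly, by 0.0142 to 0.0614. Every library without LPS correlated best with its own number except WT + JSH23 replicate 1. The main fit did not pair the libraries, and a pairing by number was not settled. Over all genes, limma on log2(TPM + 1) called 1344 genes with LPS (2361 in the count test), 612 with LPS and JSH-23 (1484), 403 with JSH-23 under LPS (1005), 317 with JSH-23 at rest (771) and 1664 in the interaction (2582), split 1356 higher and 308 lower (1370 and 1212). DESeq2 size factors split the interaction 1150 and 1474 and DESeq2 1000 and 1440. A mean of at least 1 CPM left 511 calls with JSH-23 at rest. Depth limits Cxcl11, with 4 to 8 counts per library with JSH-23, and on log2(TPM + 1) its change is understated.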
